A study of Homo sapiens with 22 samples.

Results

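PBRM1, BAP1, SETD2, TSC1, TSC2, CDKN2A, CDKN2B and RB1 are 8 human genes that hold back growth and that are lost or silenced in renal carcinoma or in other tumours. They were chosen by symbol and not by a measured value, and they are 8 of the 25343 gene symbols listed in each file. Their RNA was followed across 22 libraries of polyadenylated RNA from human renal cancer cell lines in 7 groups. There were 2 libraries each of 786-O, an established clear cell renal carcinoma line, of 786-M1A, which was derived from it through metastasis, and of OS-LM1, which is metastatic and unrelated to them. All 16 others are of 786-M1A cells carrying CRISPR interference (CRISPRi), where an inactive Cas9 fused to a repressor is led by a guide RNA to a DNA site. Their guides were the non-targeting SC (6 libraries), iMAE-126 (2), iMAE-1.1 (4) and iMAE-1.2 (4). The labels give no target element for the iMAE guides, no treatment of the unmodified lines, and no word on whether a line is 1 clone or whether replicates were separate cultures. The p-values below thus rest on how far libraries of a group lie apart, in part perhaps for technical reasons. The relation between the lines is known from earlier work and is not in the labels. All cells were grown in RPMI with 10% FBS.

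The genes fall into 3 kinds. PBRM1, SETD2 and BAP1 act on chromatin and lie with VHL on the short arm of chromosome 3, which clear cell renal carcinomas commonly lose. PBRM1 is a subunit of the PBAF remodelling complex, SETD2 places the third methyl group on lysine 36 of histone H3, and BAP1 removes ubiquitin from histone H2A. TSC1 on chromosome 9 and TSC2 on chromosome 16 form the complex that keeps RHEB, and through it the growth kinase complex mTORC1, switched off. RB1 on chromosome 13 binds E2F factors and blocks entry into S phase. CDKN2A and CDKN2B, neighbours on chromosome 9, encode p16 and p15, which inhibit the kinases CDK4 and CDK6 that inactivate RB1. CDKN2A also encodes ARF, a different protein, from a start and first exon of its own.

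CDKN2A and CDKN2B had no read in any library, so the promoter sequences that these 3 transcripts start from in the reference genome are shown here. They are the 250 bases before each start in RefSeq (GRCh38.p14, minus strand, printed 5′ to 3′). Capitals mark GGGCGG, the GC box that Sp1-type factors bind, searched on both strands with no overlap between motifs. The first is the ARF start of CDKN2A (chr9:21995325-21995574), the second its p16 start (chr9:21974858-21975107), and the third the start of CDKN2B (chr9:22009306-22009555).

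CDKN2A, ARF start: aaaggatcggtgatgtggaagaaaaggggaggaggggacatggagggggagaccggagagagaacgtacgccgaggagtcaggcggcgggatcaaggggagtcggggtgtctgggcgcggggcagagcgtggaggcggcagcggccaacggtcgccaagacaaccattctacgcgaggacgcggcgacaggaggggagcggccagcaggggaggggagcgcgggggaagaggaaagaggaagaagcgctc
CDKN2A, p16 start: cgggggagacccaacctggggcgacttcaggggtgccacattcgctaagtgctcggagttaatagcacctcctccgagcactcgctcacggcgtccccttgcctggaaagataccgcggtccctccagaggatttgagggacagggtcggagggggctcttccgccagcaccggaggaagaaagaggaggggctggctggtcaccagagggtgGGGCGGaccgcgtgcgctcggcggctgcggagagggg
CDKN2B start: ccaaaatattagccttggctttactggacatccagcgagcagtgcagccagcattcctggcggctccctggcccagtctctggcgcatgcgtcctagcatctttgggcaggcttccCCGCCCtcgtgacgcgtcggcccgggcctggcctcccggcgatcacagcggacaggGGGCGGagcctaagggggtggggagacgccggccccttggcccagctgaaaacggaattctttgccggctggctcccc

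The ARF window held 0 GC boxes, the p16 window 1 and the CDKN2B window 2. Of all 35116 windows of this length in the reference table, 42.6% held at least 1. The 3 windows held 24, 20 and 18 CpG dinucleotides, beside a median of 11 over all windows. These letters are those of the reference, and the cells' own DNA at the locus was not measured. The table gave a window for 7 of the 8 genes, BAP1 being the one without. The files were counted on hg19, and no coordinate of that build is given.

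Sequencing depth and library composition touch every value below. Depth, the sum of a library's expected counts in units of 1e6, lay between 9.06 and 52.71, with OS-LM1 at 25.8 and 15.61, 786-O at 39.7 and 41.81 and 786-M1A at 52.71 and 49.3. The libraries also differed in the mean length of the genes that their reads came from, with OS-LM1 at 3617 and 3391 bases, 786-O at 3909 and 3915 and 786-M1A at 3929 and 3982. The CRISPRi libraries fell into 2 sets by this mean, which the labels do not name. Set A, at 3528 to 3716 bases, held both iMAE-126 libraries and SC replicates 1 and 2, and set B, at 3264 to 3395 bases, held the other 12. No file repeated another. The renal markers PAX8, PAX2, LHX1, KRT8 and KRT18 had counts in all 22 libraries, while CA9 lay between 0 and 0.165 CPM (counts per 1e6 counts of the library, scaled by TMM factors) in 786-O, 786-M1A and the CRISPRi cells and at 22.91 to 26.5 CPM in OS-LM1. The summed level was 2.305 to 13.57 CPM for 4 leukocyte markers, 0.5224 to 3.278 for 3 endothelial markers and 3.826 to 21.34 for 3 fibroblast markers.

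The authors' TPM, a level per length, allows comparison between genes. RB1 and BAP1 were the 2 most abundant of the 8 genes in each of the 22 libraries. RB1 led in 15 of them and BAP1 in 7, all 7 of these being CRISPRi libraries. In 786-O the TPM levels were 82.7 and 88.98 for RB1, 61.14 and 61.35 for BAP1, 27.67 and 28.77 for SETD2, 27.21 and 27.43 for TSC2, 25.76 and 26.02 for PBRM1, and 19.42 and 19.76 for TSC1. The replicates of neighbours in this order did not overlap in 786-O, though SETD2, TSC2 and PBRM1 lay close together. In 786-M1A the order was the same but for TSC2, which at 30.59 and 29.4 TPM lay above SETD2 at 25.46 and 26.87 TPM. CDKN2A and CDKN2B stood at 0 in all 22 libraries.

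**Figure D1:**
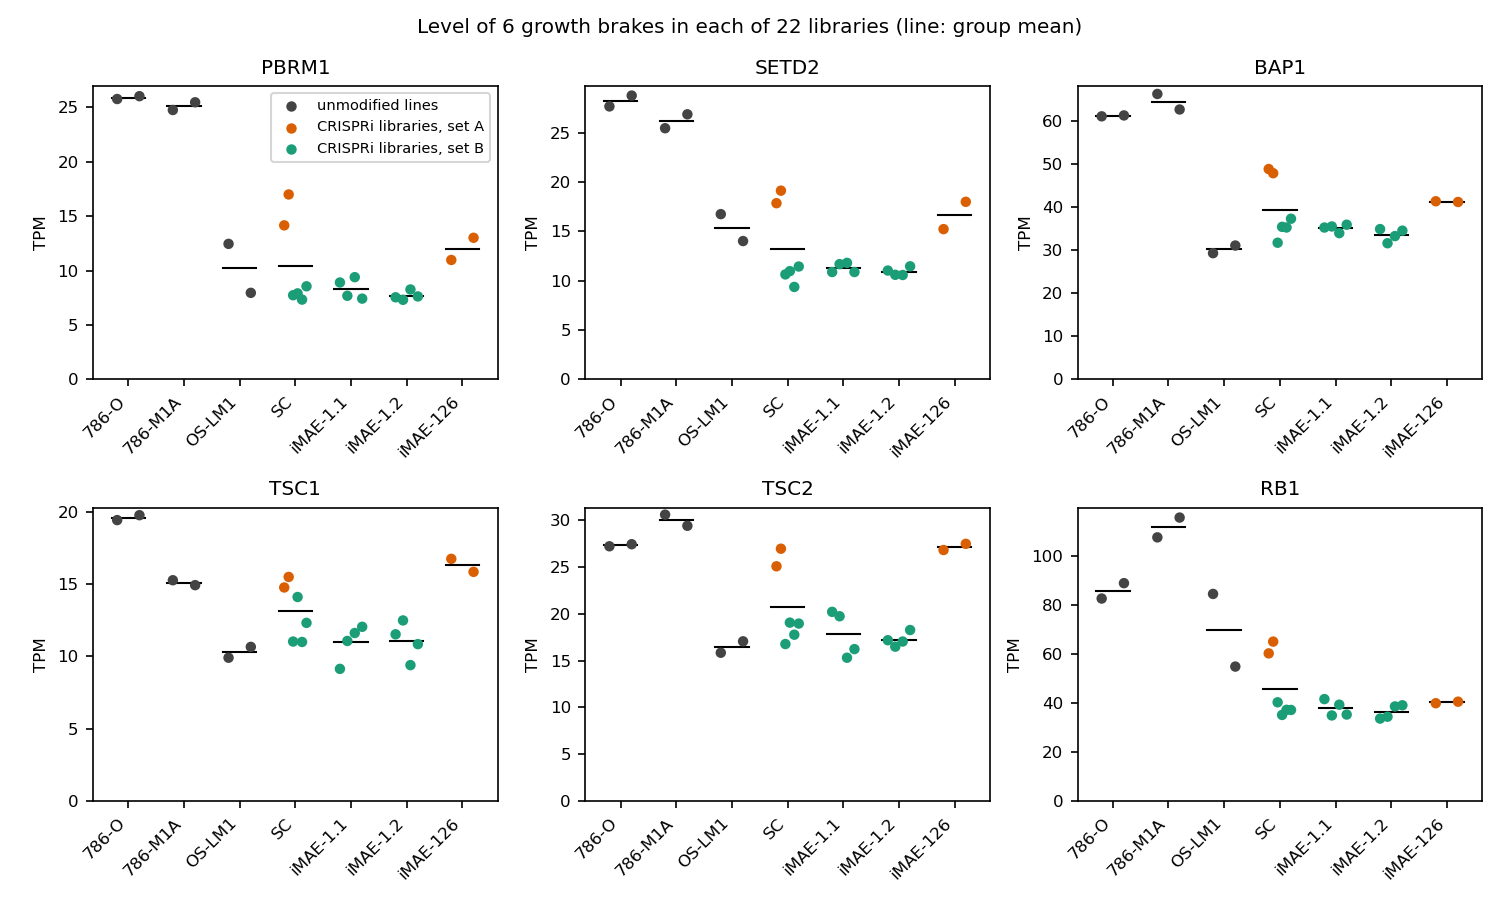
TPM (linear axis from 0) of PBRM1, SETD2, BAP1, TSC1, TSC2 and RB1 in each library of the 7 groups. Each point is 1 library, the line is the group mean, and colours separate unmodified lines from CRISPRi libraries of set A and set B. For all 6 genes the 2 SC libraries of set A lie above the 4 of set B, sets that were cut on the mean gene length of the reads.

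The 3 chromatin genes were lowest in OS-LM1 and in the CRISPRi cells and about equal in 786-O and 786-M1A. PBRM1 was at 89.06 and 89.34 CPM in 786-O and at 92.51 and 94.62 CPM in 786-M1A. In OS-LM1 it was at 48.56 and 31.61 CPM, so both OS-LM1 libraries lay below all 4 libraries of the other lines, with a wide gap between the 2. SETD2 followed, with 106.5 and 110.0 CPM in 786-O, 106.0 and 111.2 in 786-M1A, and 72.74 and 62.11 in OS-LM1. BAP1 was at 102.8 and 102.4 CPM in 786-O, at 120.6 and 113.4 in 786-M1A, and at 55.6 and 60.14 in OS-LM1. Its 2 OS-LM1 libraries were close together and far below the other 4.

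Between OS-LM1 and 786-M1A all 6 genes with reads fell in OS-LM1 in edgeR's quasi-likelihood test, at an adjusted p under 0.05. Over all 16354 genes tested, 34.3% were called lower and 68.7% were called in either direction, so a call is common in this comparison. The median log2 fold change of the 6 was −0.73, beside 0.04 over all genes tested. PBRM1 changed by −1.2 on the log2 scale (SE 0.18, edgeR adjusted p = 0.000485), BAP1 by −1.01 (SE 0.10, adjusted p = 5.18e-05) and SETD2 by −0.68 (SE 0.11, adjusted p = 0.00085). The TSC genes were also lowest in OS-LM1 among the lines. TSC1 was at 43.51 and 47.78 CPM there, beside 64.94 and 63.12 CPM in 786-M1A, and TSC2 at 44.5 and 49.32 CPM beside 82.38 and 78.61 CPM. TSC2 changed by −0.77 (SE 0.10, edgeR adjusted p = 0.00021) and TSC1 by −0.48 (SE 0.10, adjusted p = 0.00237). RB1 changed by −0.59 (SE 0.18, edgeR adjusted p = 0.0187), a call that ended when either 786-M1A library was left out (adjusted p = 0.0555 without the one numbered 1 and 0.0878 without the other). In bulk RNA, fewer expressing cells and less RNA per cell cannot be told apart.

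Between OS-LM1 and 786-O, a comparison that shares the OS-LM1 libraries with the one above, 5 of the 6 fell, beside 33.3% of all genes called lower and 63.6% called in either direction. The log2 fold changes were −1.18 for PBRM1, −0.86 for BAP1, −0.71 for SETD2, −0.78 for TSC1 and −0.56 for TSC2, with edgeR adjusted p-values between 0.00015 and 0.00139. RB1 was not called, at −0.14 (SE 0.18, edgeR adjusted p = 0.527). Its OS-LM1 libraries, at 207.2 and 137.1 CPM, lay on either side of the 786-O libraries at 179.6 and 191.9 CPM. With OS-LM1 replicate 1 left out, the lower OS-LM1 library gave RB1 a log2 fold change of −0.48, a value that rests on 1 library and has no measure of the spread in OS-LM1.

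The level of PBRM1 and SETD2 moved with the mean gene length of the reads. Over the 22 libraries, which share lines, sets and library preparations, Pearson's r between log2 CPM and that mean was 0.98 for PBRM1, 0.98 for SETD2, 0.86 for RB1, 0.74 for BAP1, 0.67 for TSC2 and 0.50 for TSC1. With the mean length as a further term in the fit, an alternative added after seeing the data, PBRM1 in OS-LM1 versus 786-M1A was −0.06 (edgeR adjusted p = 0.847) and SETD2 −0.19 (adjusted p = 0.441). BAP1 kept its call at −1.25 (adjusted p = 1.02e-05), as did TSC1 at −0.73 (adjusted p = 0.00441) and TSC2 at −1.06 (adjusted p = 0.000118). RB1 turned to 0.57 (adjusted p = 0.00673). Against 786-O the same fit gave −0.15 for PBRM1 (adjusted p = 0.592), −0.28 for SETD2 (adjusted p = 0.205) and 0.91 for RB1 (adjusted p = 2.66e-05), while BAP1 (−1.07), TSC1 (−1.01) and TSC2 (−0.82) kept their calls. The 2 OS-LM1 libraries lie 226 bases apart in mean length and the pairs of the other lines at most 53, so this fit rests largely on OS-LM1. Whether the mean length brings about these differences was not tested.

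**Figure D2:**
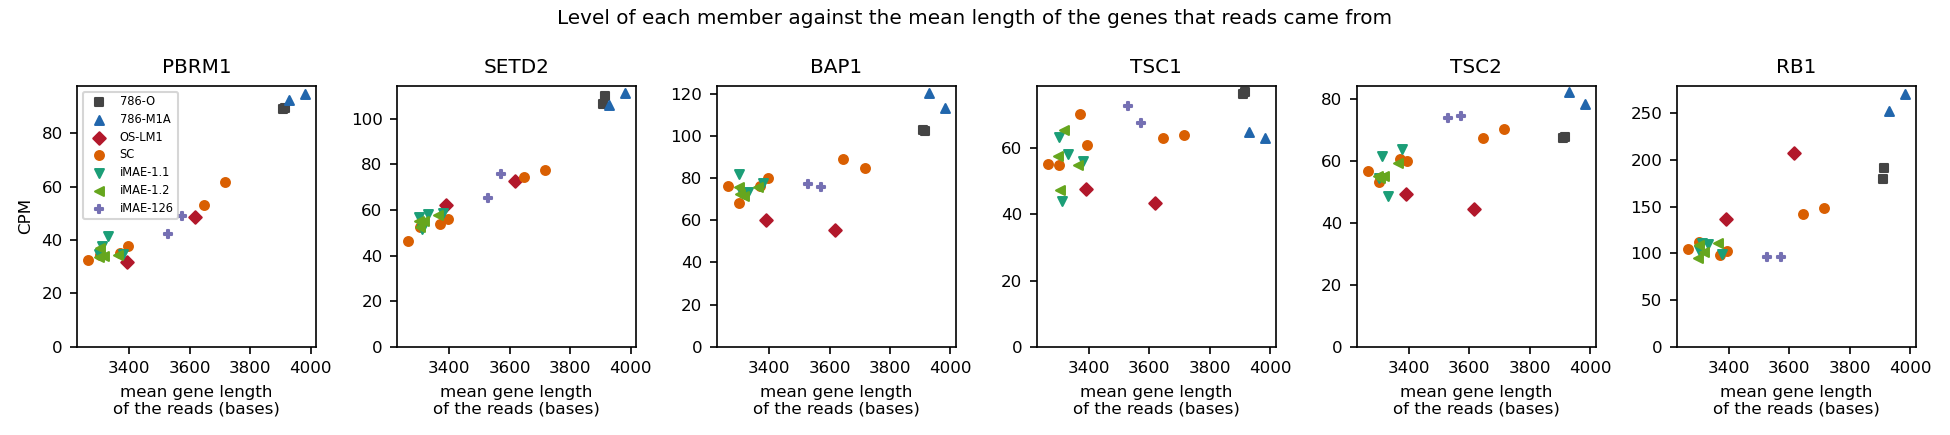
CPM of each of the 6 genes with reads against the mean length, in bases, of the genes that a library's reads came from, 1 point per library, with a symbol for each group. PBRM1 and SETD2 rise with the mean length over all 22 libraries (Pearson's r 0.98 for both), while the OS-LM1 libraries lie below all others in BAP1 and below 786-O and 786-M1A in TSC1 and TSC2.

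In 786-M1A versus 786-O the chromatin genes were not called, with log2 fold changes of 0.03 for PBRM1 (SE 0.17, edgeR adjusted p = 0.916), −0.03 for SETD2 (SE 0.11, adjusted p = 0.841) and 0.15 for BAP1 (SE 0.10, adjusted p = 0.276). Of the 6 genes 1 was called, TSC1, beside 16.3% of all genes called lower and 14.7% called higher. TSC1 was at 76.39 and 77.2 CPM in 786-O and at 64.94 and 63.12 CPM in 786-M1A, with no overlap. It fell by 0.30 on the log2 scale (SE 0.09, edgeR adjusted p = 0.0419). Leaving out any 1 of the 4 libraries ended this call (adjusted p between 0.204 and 0.268) and with the replicate number as a block (adjusted p = 0.0825). TSC2, its partner, was at 67.57 and 67.74 CPM in 786-O and 82.38 and 78.61 CPM in 786-M1A, a difference of 0.21 that did not pass (SE 0.10, edgeR adjusted p = 0.134). RB1 was at 179.6 and 191.9 CPM in 786-O and 252.9 and 270.4 CPM in 786-M1A, a difference of 0.45 that did not pass either (SE 0.18, edgeR adjusted p = 0.0925). The spread in this fit is shared with OS-LM1, whose replicates lie far apart. With the 4 libraries of 786-O and 786-M1A alone, 4 genes were called: RB1 (0.45, adjusted p = 2.29e-07), TSC2 (0.20, adjusted p = 0.00702), BAP1 (0.14, adjusted p = 0.0396) and TSC1. DESeq2 also called RB1 (0.48, adjusted p = 0.0364).

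SC cells, which are 786-M1A cells with the CRISPRi system and a non-targeting guide, had less RNA of 4 of the 6 genes than unmodified 786-M1A cells. Of all 14769 genes tested, 25.3% were called lower and 27.8% higher. RB1 fell from 252.9 and 270.4 CPM to between 97.67 and 148.8 CPM, a log2 fold change of −1.04 (SE 0.17, edgeR adjusted p = 0.00241). PBRM1 changed by −1.03 (SE 0.24, edgeR adjusted p = 0.00786), SETD2 by −0.74 (SE 0.19, adjusted p = 0.0118) and BAP1 by −0.46 (SE 0.11, adjusted p = 0.00848). No SC library overlapped 786-M1A in these 4 genes, nor in TSC2, which was not called. The share of all genes with no overlap was not computed. TSC2 did not pass at −0.28 (SE 0.12, edgeR adjusted p = 0.0657) but did with RLE factors (−0.33, adjusted p = 0.0427), and TSC1, whose libraries overlapped, was at 0.05 (SE 0.11, adjusted p = 0.747). Without 786-M1A replicate 1 or 2 only RB1 stayed called, and PBRM1 (adjusted p = 0.053 and 0.066), BAP1 (0.0769 and 0.058) and SETD2 (0.0631 and 0.0888) were lost. The reads of every SC library came from shorter genes on average than those of 786-M1A, and with that mean as a term RB1 was −0.42 (adjusted p = 0.0401), PBRM1 −0.05 (adjusted p = 0.817), BAP1 −0.16 (adjusted p = 0.39) and SETD2 0.03 (adjusted p = 0.871). The CRISPRi system and library preparation cannot be told apart here.

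Within SC, the 2 libraries of set A stood above the 4 of set B in every one of the 6 genes on the TPM scale. The sets were cut on the mean gene length of the reads, and the 6 genes are 3701 to 8616 bases long. How many of all genes differ between the sets in this way was not computed. PBRM1 was at 14.15 and 16.99 TPM in set A and between 7.33 and 8.55 TPM in set B, 1.98 times as high on average. The ratio of the set means was 1.74 for SETD2, 1.67 for RB1, 1.43 for TSC2, 1.38 for BAP1 and 1.25 for TSC1. On the CPM scale these ratios ran from 1.05 for TSC1 to 1.65 for PBRM1. TSC1 overlapped on that scale, at 63.05 and 64.08 CPM in set A and 55.04 to 70.41 CPM in set B. A guide was therefore compared with SC within its library set, by a set term in the fit.

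With the guides iMAE-1.1 and iMAE-1.2 no change was detected in the 6 genes. Neither edgeR, DESeq2 nor limma on log2(TPM + 1) called any of the 6 in either comparison, and none reached an unadjusted p of 0.05 in edgeR, beside 1.79% and 2.73% of all 15254 genes called. The log2 fold changes ran from −0.12 (TSC1, SE 0.11) to 0.10 (SETD2, SE 0.07) in iMAE-1.1 and from −0.09 (TSC1, SE 0.11) to 0.07 (SETD2, SE 0.07) in iMAE-1.2. PBRM1, for example, was at 34.62 to 41.69 CPM in the 4 iMAE-1.1 libraries and 33.78 to 36.91 CPM in the 4 iMAE-1.2 libraries, beside 32.68 to 37.63 CPM in SC set B. RB1 was at 98.93 to 111.0 CPM and 94.7 to 110.8 CPM, beside 97.67 to 112.2 CPM in SC set B. The libraries of guides and controls overlapped in each of the 6 genes.

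In iMAE-126 cells RB1 was lower than in the SC libraries. It was at 96.4 and 96.08 CPM, beside 142.1 and 148.8 CPM in the SC libraries of the same set and 97.67 to 112.2 CPM in those of set B. Both iMAE-126 libraries lay below all 6 SC libraries, narrowly for set B and clearly for set A. RB1 fell by 0.59 on the log2 scale (SE 0.09, edgeR adjusted p = 0.000328), to 0.66 of the control level. The call held without each library in turn and with the mean gene length as a term (−0.63, adjusted p = 0.00943). It was lost without the set term (−0.29, adjusted p = 0.165). PBRM1 was also called, at 42.19 and 49.07 CPM beside 53.08 and 61.8 CPM in SC set A, with a log2 fold change of −0.33 (SE 0.11, edgeR adjusted p = 0.0448). That call was lost without SC replicate 2 (adjusted p = 0.346), 3 (0.0649), 4 (0.0671), 5 (0.0517) or 6 (0.0584) or without either iMAE-126 library (0.31 and 0.0549). It was lost with the mean gene length as a term as well (−0.17, adjusted p = 0.51), and without the set term it turned to 0.11 (adjusted p = 0.744). These 2 of 6 calls stand beside 16.7% of all genes called, 10.4% lower and 6.31% higher. TSC2 was at 73.98 and 74.49 CPM in iMAE-126, beside 67.51 and 70.4 CPM in SC set A and 53.4 to 60.68 CPM in set B. BAP1 (−0.18, SE 0.08), SETD2 (−0.11, SE 0.10), TSC1 (0.14, SE 0.15) and TSC2 (0.11, SE 0.10) were not called (edgeR adjusted p between 0.139 and 0.557).

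**Figure D3:**
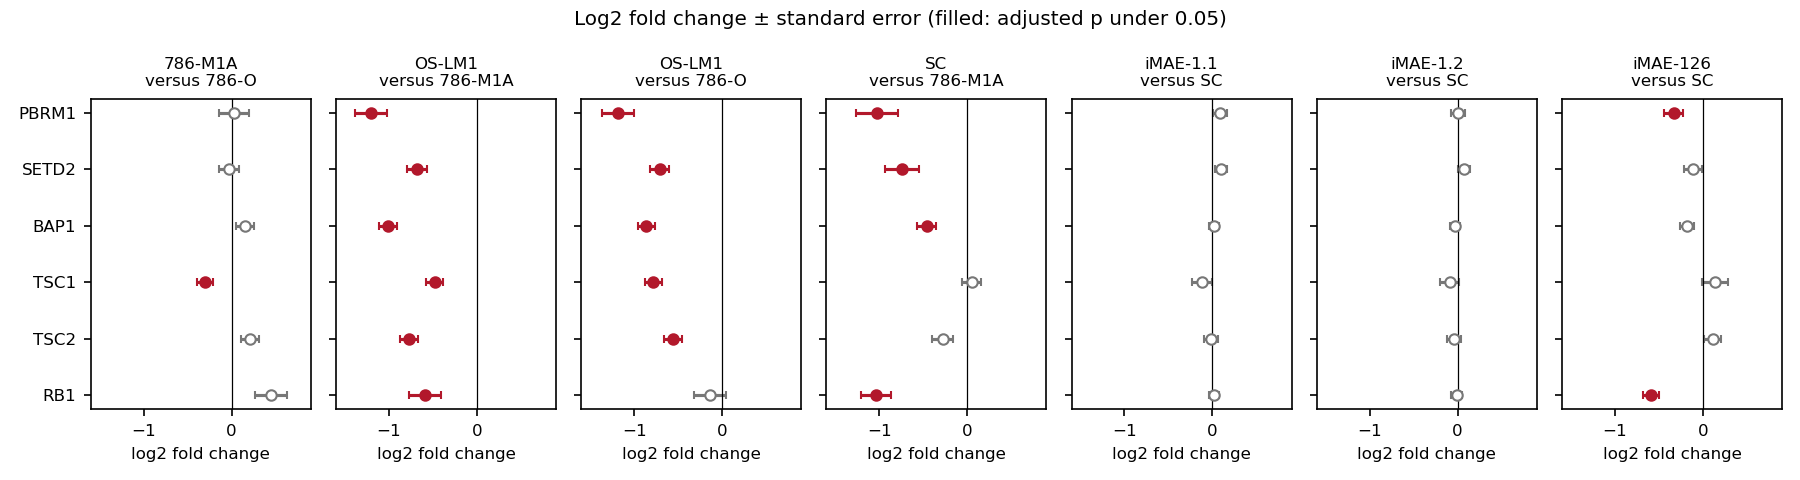
Log2 fold change (horizontal axis) with its standard error for the 6 genes with reads in the 7 comparisons, filled where the edgeR adjusted p is under 0.05. All filled points lie below 0, and iMAE-1.1 and iMAE-1.2 have none.

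CDKN2A and CDKN2B were not detected. Each had 0 counts in 22 of 22 libraries, which together hold 509.1 × 1e6 counts. By the limit that 3 counts set, a level of up to 0.00589 CPM over all libraries remains possible, and of 0.0569 to 0.331 CPM (on the raw totals) in a single library, for counting error only. Neither gene was tested, and no fold is given.

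Their neighbours on chromosome 9 did have reads. In order along the chromosome, by RefSeq, the genes looked at were MLLT3, FOCAD, PTPLAD2, IFNB1, KLHL9, IFNE, MTAP, C9orf53, CDKN2A, CDKN2B-AS1, CDKN2B, DMRTA1 and ELAVL2. MTAP, which encodes the methylthioadenosine phosphorylase of methionine salvage, lay between 51.91 and 91.5 CPM in the 20 libraries of 786-O, 786-M1A and the CRISPRi cells. In OS-LM1 it was at 2.506 and 3.382 CPM, a log2 fold change of −4.72 against 786-M1A (SE 0.15, edgeR adjusted p = 1.43e-07). On the other side, DMRTA1, a DM-domain transcription factor gene, lay between 8.517 and 14.6 CPM in the 20 libraries and had 0 counts in both OS-LM1 libraries. With 3 counts over the group as the floor, that is at least 191-fold lower than in 786-M1A and at least 160-fold lower than in 786-O. So the 786-O family had reads on both sides of this pair, and OS-LM1 had few or none.

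Further out, the lines differed in other ways. PTPLAD2, a gene of fatty acid elongation, had 294 and 159 counts in OS-LM1 (11.69 and 9.778 CPM) and at most 6 in any of the 20 other libraries. ELAVL2, a neuronal RNA-binding protein gene, had 35 and 13 counts in OS-LM1 and 1 count in all 20 others together. KLHL9 was at 40.59 to 54.53 CPM in OS-LM1 and 25.93 to 66.2 CPM in the other 20, and MLLT3 at 19.99 to 23.15 and 12.23 to 34.26 CPM, so both had reads in every library. FOCAD was at 23.25 and 30.39 CPM in OS-LM1, 60.16 to 73.38 CPM in 786-O and 786-M1A, and 22.36 CPM at its lowest in the CRISPRi cells. IFNE was at most at 1.946 CPM, IFNB1 had 4 counts in all, and C9orf53 had none.

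CDKN2B-AS1, the antisense RNA whose gene overlaps CDKN2B, had reads in all 22 libraries, at 3.748 to 8.018 CPM in the 786-O family and 8.113 and 8.425 CPM in OS-LM1. It was 1.14 higher on the log2 scale in OS-LM1 than in 786-M1A (SE 0.16, edgeR adjusted p = 0.000334), a call lost with the mean gene length as a term (1.07, adjusted p = 0.0939). The kit marks strand, but whether the counting used it is not known here, so reads of CDKN2B and of its antisense gene may not have been kept apart. Between OS-LM1 and 786-M1A all 9 of the tested neighbours were called, 5 higher and 4 lower. Of all genes 68.7% were called, 34.4% higher and 34.3% lower. PTPLAD2, ELAVL2 and IFNE passed the filter on low counts only through OS-LM1, and DMRTA1 only through the other lines. The direction of their calls was thus fixed by the filter, and the count of 9 is no result about the region. KLHL9 lost its call when either 786-M1A library was left out (adjusted p = 0.0748 and 0.105) and IFNE with the mean gene length as a term (1.73, adjusted p = 0.506), a term that turned KLHL9 to 0.40.

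**Figure D4:**
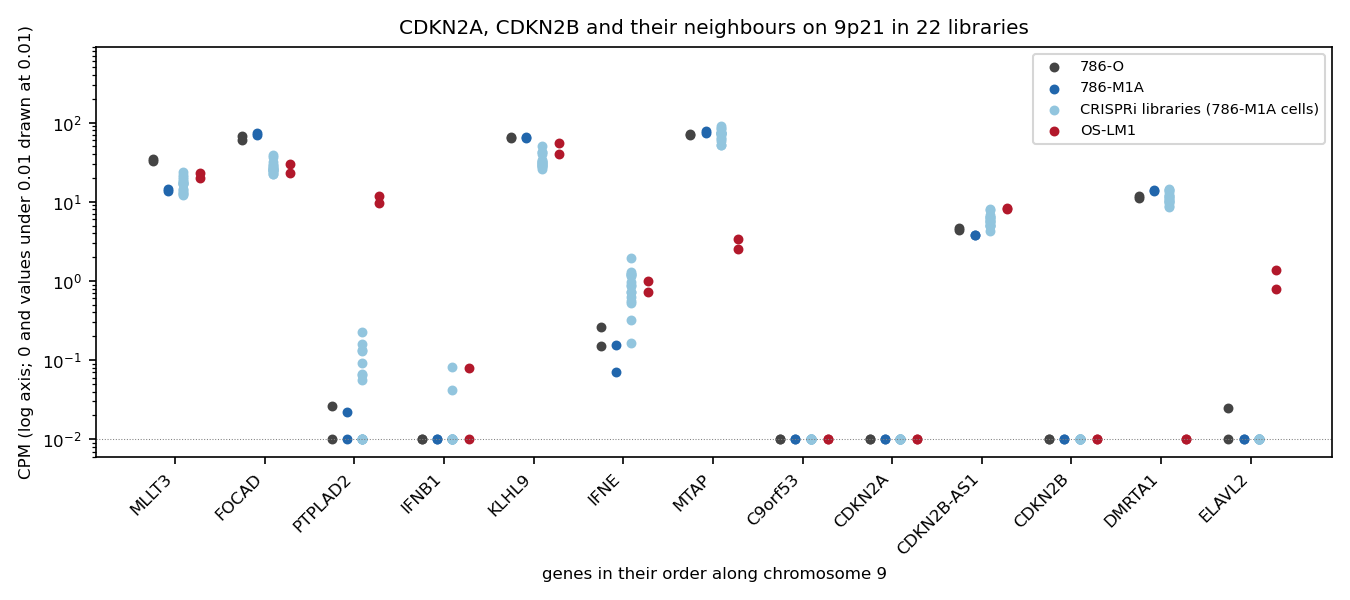
CPM on a log axis, with 0 and values under 0.01 drawn at the dotted line at 0.01, for CDKN2A, CDKN2B and 11 neighbours in their order along chromosome 9, 1 point per library. CDKN2A and CDKN2B are at 0 in every library, while MTAP and DMRTA1 on either side have reads in 786-O, 786-M1A and the CRISPRi libraries and lie far lower in OS-LM1.

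The partners of the 8 genes were read from lists of pathway members. In OS-LM1 versus 786-M1A, 34.3% of all genes were called lower and 34.4% higher. Of 18 BAF and PBAF subunits 12 were lower and 2 higher, with a median of −0.50 beside 0.04 over all genes. The 2 ATPases were among them, SMARCA2 at −2.20 (33.24 beside 154.5 CPM) and SMARCA4 at −1.75 (104.7 beside 355.3 CPM). Of 17 genes that write, erase or read H3K36 methylation, 11 were lower and 2 higher, with a median of −0.53, and NSD1, which places the first 2 methyl groups, changed by −1.86. Of 15 tested BAP1 partners and H2A ubiquitin ligases 8 were lower and 2 higher. ASXL2, a cofactor of BAP1, changed by −2.47 and OGT, a glycosyltransferase that BAP1 binds, by 1.33. The call of ASXL2 was lost with the mean gene length as a term (−0.14, adjusted p = 0.861), and the other 4 genes named here kept theirs. With that term 6 of the BAF and PBAF subunits, 5 of the H3K36 genes and 1 of the BAP1 partners were lower and 3, 4 and 1 higher, beside 16.2% of all genes lower and 19.5% higher.

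On the growth side the lists were more mixed in OS-LM1. Of 26 genes of the TSC and mTORC1 pathway 10 were lower and 8 higher than in 786-M1A, with a median of 0.02. The kinase MTOR changed by −1.63 (67.78 beside 212.0 CPM) and DDIT4, which activates the TSC complex under stress, by 1.89 (517.8 beside 140.3 CPM). Of 24 tested genes of the RB pathway 13 were lower and 4 higher. E2F5, a repressor E2F, was at 0.2532 CPM on average beside 8.706 CPM, a change of −5.14, and CCNE2, an E-type cyclin, changed by −1.76. Of 15 E2F target genes 10 were lower and 2 higher, with a median of −0.93, among them the helicase subunit gene MCM4 at −1.65 and, in the other direction, PCNA at 1.27. Each gene named in these sentences stayed called in the alternatives tried. Beside these counts, 34.3% of all genes were called lower and 34.4% higher. With the mean gene length as a term 7 mTORC1 pathway genes, 11 RB pathway genes and 7 E2F targets were lower. In that fit 3, 5 and 2 were higher, beside 16.2% of all genes lower and 19.5% higher. The median of the E2F targets was then −0.32.

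In 786-M1A versus 786-O called genes of the RB pathway went in both directions, and no result about the pathway is drawn from them. Those with the largest changes were a pair of D-type cyclins, which drive the inactivation of RB1, and an inhibitor. CCND3 rose by 0.73 (70.6 beside 41.38 CPM) and CCND1 by 0.65 (840.6 beside 521.8 CPM), while CDKN1B, which encodes p27, fell by 0.63. The call of CCND1 was lost without 786-O replicate 1 (adjusted p = 0.0536) or 2 (adjusted p = 0.0673). Of 24 tested genes of the RB pathway 5 were higher and 4 lower, and of 15 E2F targets 4 were higher, among them CDT1, which loads the replicative helicase (0.66). That call was lost without 786-O replicate 2 (adjusted p = 0.0543). Of the 26 mTORC1 pathway genes 5 were higher and 7 lower. RRAGD, a GTPase that brings mTORC1 to the lysosome, was at 0.1509 CPM beside 3.737 CPM, a change of −4.65, and SESN2, a leucine sensor, changed by −0.86. The de novo DNA methyltransferase gene DNMT3B changed by −1.32. The background in this comparison was 14.7% called higher and 16.3% called lower. With 1 library left out the RB pathway had 1 to 3 genes higher and the E2F targets 0 to 3.

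With the iMAE-1 guides few genes of the lists were called, and no result about the lists is drawn from them. In iMAE-1.1 these were 2 of 23 tested RB pathway genes and 1 of 17 H3K36 genes, beside 1.79% of all genes. In iMAE-1.2 they were 1 of 23 and 1 of 17, and 1 of 18 other renal carcinoma suppressor genes, beside 2.73% of all genes. The genes were CCND1, WHSC1, E2F1 and ATM. CCND1, which encodes cyclin D1, rose by 0.53 in iMAE-1.1 (SE 0.06, edgeR adjusted p = 3.16e-05), and the rise in iMAE-1.2 was 0.54 (SE 0.06, adjusted p = 1.95e-05), relative to SC of the same set. Without the set term neither was called (0.19, adjusted p = 0.54, and 0.20, adjusted p = 0.499), and with the replicate block it was not called in iMAE-1.1 (adjusted p = 0.0595). The 2 comparisons share their SC libraries. WHSC1, which dimethylates H3K36, was called at 0.24 and 0.21, and E2F1 at 0.21 in iMAE-1.1. Both calls of WHSC1 and that of E2F1 were lost without several single libraries (adjusted p up to 0.179). ATM, the DNA damage kinase, fell by 0.38 in iMAE-1.2 (SE 0.07, edgeR adjusted p = 0.00775), a call lost with the replicate block (−0.48, adjusted p = 0.11) or without the set term (−0.33, adjusted p = 0.0602). No other gene of the lists was called with these 2 guides.

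In iMAE-126, where RB1 was lower, 5 of 23 tested RB pathway genes were lower and 1 higher, beside 10.4% of all genes called lower. CDK6, a kinase that phosphorylates RB1, fell by 0.70 (SE 0.12, edgeR adjusted p = 0.0009) and was not called without the set term (−0.28, adjusted p = 0.349), and E2F7, a repressor E2F, by 0.55 (SE 0.09, adjusted p = 0.00112). CCNE1, an E-type cyclin, rose by 0.57 (SE 0.15, edgeR adjusted p = 0.0146), a call lost without SC replicate 2 (adjusted p = 0.132) or iMAE-126 replicate 1 (adjusted p = 0.142). Of 15 E2F targets 2 were lower and none higher, beside 10.4% of all genes lower and 6.31% higher. CCNA2, which encodes cyclin A2, fell by 0.63 (SE 0.09, edgeR adjusted p = 0.000244). RRM2, a subunit of ribonucleotide reductase, fell by 0.48, a call lost without SC replicate 2 (adjusted p = 0.0707) or either iMAE-126 library (0.0552 and 0.0719). Of 24 mTORC1 pathway genes 2 were lower and 1 higher, beside the same shares, and no result about this list is drawn. RHEB, the GTPase that TSC2 switches off, fell by 0.42 (SE 0.09, edgeR adjusted p = 0.00331). That call narrowly failed without iMAE-126 replicate 1 (adjusted p = 0.0513). With the mean gene length as a term 2 RB pathway genes and 2 E2F targets were lower and none of either list higher. Of all genes 3.14% were lower in that fit. Without SC replicate 2 the counts of lower genes were 2 in the RB pathway and 1 among the E2F targets.

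In SC versus 786-M1A 11 of 15 E2F targets and 9 of 23 RB pathway genes were lower and none of either list higher. Of all genes 25.3% were lower and 27.8% higher. Also lower were 10 of 17 H3K36 genes, 7 of 18 BAF and PBAF subunits and 4 of 15 BAP1 partners and ligases. In these chromatin lists 2, 1 and 2 genes were higher. The fit with the mean gene length left 1, 3 and 1 of them lower and 3, 1 and 1 higher. RRM2 changed by −0.94 and RBL1, which encodes the pocket protein p107, by −1.09. With the mean gene length as a term 5 of 15 E2F targets and 5 of 23 RB pathway genes were lower and 0 and 2 higher, beside 9.02% of all genes lower and 10.1% higher. RRM2 (−0.95) and RBL1 (−0.65) stayed called in that fit. Without 786-M1A replicate 2 the counts of lower genes were 5 and 4.

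The genes whose levels were most like those of the 6 were found by Pearson correlation of log2(CPM + 0.5) over 22 libraries among 13835 genes. The closest to PBRM1 was STRN (r = 0.992) and the closest to SETD2 was DNAJC13 (0.985). BAP1 was closest to AGPAT3 (0.958) and TSC1 to BTN3A1 (0.909). For RB1, MTMR6 (0.988) and KPNA3 (0.985) were among its 3 closest genes. For TSC2, KIAA0556 (0.954) and TAOK2 (0.936) were among the 3 closest. Among the 6 genes themselves PBRM1 and SETD2 were most alike (r = 0.97), and TSC1 and RB1 least (r = 0.10). STRN and DNAJC13 followed the mean gene length of the reads as well (r = 0.99 and 0.98). So did MTMR6 and KPNA3 (0.85 for both), KIAA0556 (0.75) and TAOK2 (0.55). The part of that mean in these likenesses was not tested. Whether the closest genes share a chromosome with their gene more often than others of the 13835 was not tested.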

How the data were processed

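Reads per gene were deposited as RSEM's expected count, an estimate that need not be whole (27.24 to 31.19% of a library's values were not), per the file headers. The deposited TPM was computed by the authors with RSEM, per the file headers. The aligner and the build, Bowtie2 and hg19, come from the submitters' processing notes. Tool versions and the strand setting of the counting are not given in the sources used. Libraries were stranded (dUTP) with 15 PCR cycles, per the labels' protocols. Each of the 22 files lists 25343 symbols.

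Expected counts were rounded and fitted with edgeR 4.0.16 in R 4.3.3 (TMM factors, the filterByExpr filter with min.count 10, robust quasi-likelihood tests, p-values adjusted by Benjamini-Hochberg over all genes tested and called under 0.05). There were 3 fits: the 16 CRISPRi libraries with library set as a term, the lines alone (6 libraries), and SC together with 786-M1A. A guide's log2 fold change is thus relative to SC of its own set. SE is the log2 fold change over the root of the F statistic. The method was tested on simulated counts with a fixed spread shared by all genes and no difference between library sets or in mean gene length. That test does not cover such differences in these libraries. CPM uses TMM factors over all 22 libraries. CDKN2A and CDKN2B did not pass the filter on low counts, and the other 6 genes did. From each list up to 3 called genes with the largest change and at least 1 CPM in a group could be named, and all listed neighbours on chromosome 9. For likeness the 3 genes with the highest correlation were taken. The 8 genes, the lists, written from general knowledge, and the library set term were chosen with earlier results of these data known. Alternatives were RLE factors, DESeq2 1.42.0, no filter, a minimum count of 50, a block for the replicate number, limma 3.58.1 on log2(TPM + 1), no set term, subsets of libraries, and each library left out, where a group with 1 library takes its spread from the other groups. Chosen after seeing the data were the mean gene length as a term and a fit with the replicate numbers crossed. Same-numbered libraries of 2 groups deviated from their group means with correlations between −0.2 and 0.16, so the numbers were not taken to pair them. Tables and figures were made in Python 3.11.15 (numpy 2.4.6, pandas 2.3.3, matplotlib 3.10.9). Some listed genes, and counts and sums that include them, are not reported here.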

Additional observations from a re-analysis of the deposited data

Results flagged for a closer look

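TSC2 in iMAE-1.2 replicate 4 stood at 59.29 CPM, above the 54.52 to 55.26 CPM of the other 3 iMAE-1.2 libraries. Its gap to the nearest of them made up 0.845 of the group's range, past Dixon's limit for 4 values. Of 18 pairs of gene and group checked in this way, this was the only one past the limit, and chance alone passes it in about 1 of 20. TSC2 was not called in iMAE-1.2 with or without this library.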

How the results depend on the processing

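Of the values of the 6 tested genes with 1 library left out, 266 stayed on their side of the threshold, 19 lost a call and 3 gained one. In the other alternatives 352 stayed, 15 lost a call, 13 gained one and 4 changed sign, where a sign change with neither value called counts as unchanged. Depth did not keep the 6 genes from being tested, and it sets the limit for CDKN2A and CDKN2B. The cause of a change with a setting was not tested.

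In iMAE-126 the count of called genes among the 8 was 2 and became 1 with limma on TPM, no filter, a filter at 50 counts, the replicate block or the mean gene length as a term, 0 without the set term, and 1 to 2 with 1 library left out. In 786-M1A versus 786-O it was 1 and became 0 with RLE factors or the replicate block, 2 with DESeq2, 4 with the compared groups only or the mean gene length, and 0 to 0 with 1 library left out. In SC versus 786-M1A it was 4 and became 1 with the mean gene length and 1 to 5 with 1 library left out. The counts in iMAE-1.1, iMAE-1.2 and OS-LM1 kept within 1.5 times, but they take no account of direction. With the mean gene length as a term PBRM1 and SETD2 lost their calls in both OS-LM1 comparisons, and RB1 was called as higher. With the replicate block they were 0, 0, 1, 0, 6, 5 and 4 in the 7 comparisons in the order iMAE-1.1, iMAE-1.2, iMAE-126, 786-M1A, OS-LM1 (against 786-M1A, then 786-O) and SC. With 2 pairs and a correlation of −0.2, the crossed replicate numbers gave 11237 called genes and 6 of the 8 in OS-LM1 versus 786-M1A, beside 10716 with the numbers as given.

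Without the set term, signs turned in iMAE-126 for PBRM1 (0.11), ASXL2 (0.26), DNMT3B (−0.06), MTOR (0.03) and SMARCA2 (0.11). With the mean gene length as a term they turned for RB1 (0.57) and KLHL9 (0.40) in OS-LM1 versus 786-M1A, and for RB1 (0.91), BMI1 (0.27) and KLHL9 (0.29) in OS-LM1 versus 786-O. In SC versus 786-M1A they turned for SETD2 (0.03), ASH1L (0.14), ASXL2 (0.34), EIF4EBP1 (−0.19), FNIP2 (0.17), KLHL9 (0.00), PCGF1 (−0.09), SMARCA2 (0.02), SMARCC1 (0.16) and VHL (−0.19).

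Over all genes, 273 calls in iMAE-1.1 became 6 with the replicate block, 69 without the set term, 482 with DESeq2 and 135 to 271 with 1 library left out. The 417 in iMAE-1.2 became 10, 110, 655 and 201 to 441. The 2550 in iMAE-126 became 1388 with the block, 736 with the mean gene length, 4353 with the compared groups only and 728 to 2289 with 1 library left out. The 5064 in 786-M1A versus 786-O became 8733 with the compared groups only, 8413 with the mean gene length and 2259 to 2551 with 1 library left out. The mean gene length left 5831 of 11232 and 5791 of 10405 calls in the OS-LM1 comparisons and 2820 of 7832 in SC versus 786-M1A, where 1999 to 9085 were called with 1 library left out.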
